A study of Gallus gallus with 12 samples.

Results

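The stretch of chicken chromosome 6 from position 29000001 to 31000000 held 315 regions of accessible chromatin, of 127749 regions found over all chromosomes. It was chosen by position, and the position itself was picked from earlier results on these same peak lists, in which regions accessible in the fissure margin of the eye and not in dorsal retina lay close together there. That density is therefore a description and not a finding, and no test was run on it. The members are all peaks of the 4 lists that start in the window, joined into regions where they overlap by at least 1 bp. No region was cut by an edge of the window. The region just inside the left edge (29000901 to 29001732) had a peak in all 4 lists, and the one just outside (28997743 to 28998058) had a weak peak in dorsal retina at HH30 alone. At the right edge, the last region inside (30998637 to 30998804) had no peak in dorsal retina at HH34, and the first one outside (31015212 to 31016007) had a peak in all 4 lists.

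The optic fissure is a transient gap along the ventral side of the embryonic eye cup. Its margins approach each other, fuse and close, and failure of this fusion leaves the eye defect called coloboma. Dorsal retina belongs to the same layer of tissue but has no fissure. Accessible chromatin marks DNA that is free of tightly packed nucleosomes, as at promoters, enhancers and insulators, and several accessible sites in a row along a chromosome are a common arrangement around genes with a tissue-restricted expression. Peak lists alone do not say which of these kinds a site is.

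The study measured accessibility by omni-ATAC-seq, in which the transposase Tn5 cuts and tags open DNA. The 4 groups were optic fissure margin (OFM) and dorsal retina, each at Hamburger-Hamilton (HH) stage 30 and at stage 34, all from wildtype embryos of hy-line eggs. Each group had 3 biological replicates, and each replicate pooled tissue dissected from 10 embryos. The authors called peaks jointly over the replicates of a group, so each group has 1 list, no value here has a replicate error, and no difference between lists could be tested. Both tissues were cut from each eye, per the labels, whereas the stages come from different embryos, so stage and embryo set cannot be told apart. Peak lists carry no expression values, and the identity of the dissected tissues was not checked against marker genes. Positions are in GRCg6a (galGal6), the build named in the submitters' processing notes. No gene annotation or sequence of that build was used, so the genes at the locus are not named here.

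The OFM lists had more peaks at the locus than the dorsal lists at both stages. At HH30 the counts were 287 for OFM (0.264% of its list) and 251 for dorsal retina (0.236%). At HH34 there were 258 (0.245%) and 222 (0.219%). The OFM lists were also the longer ones over all chromosomes, with 108689 against 106170 peaks at HH30 and 105103 against 101452 at HH34. The peaks covered 153.4 kb in OFM and 127.5 kb in dorsal retina at HH30, and 136.1 kb and 110.8 kb at HH34. Over all chromosomes the covered length differed little between the tissues, with an OFM to dorsal ratio of 1.01 at HH30 and 1.02 at HH34. Peak strength was read as the percentile of the authors' area score within a list, where 100 is the strongest peak and values near 0 the weakest. By this measure the median peak of the locus stood at 47.2 in OFM and 47.3 in dorsal retina at HH30, and at 48.8 and 45.3 at HH34. The locus was thus close to the middle of each list in strength.

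**Figure D1:**
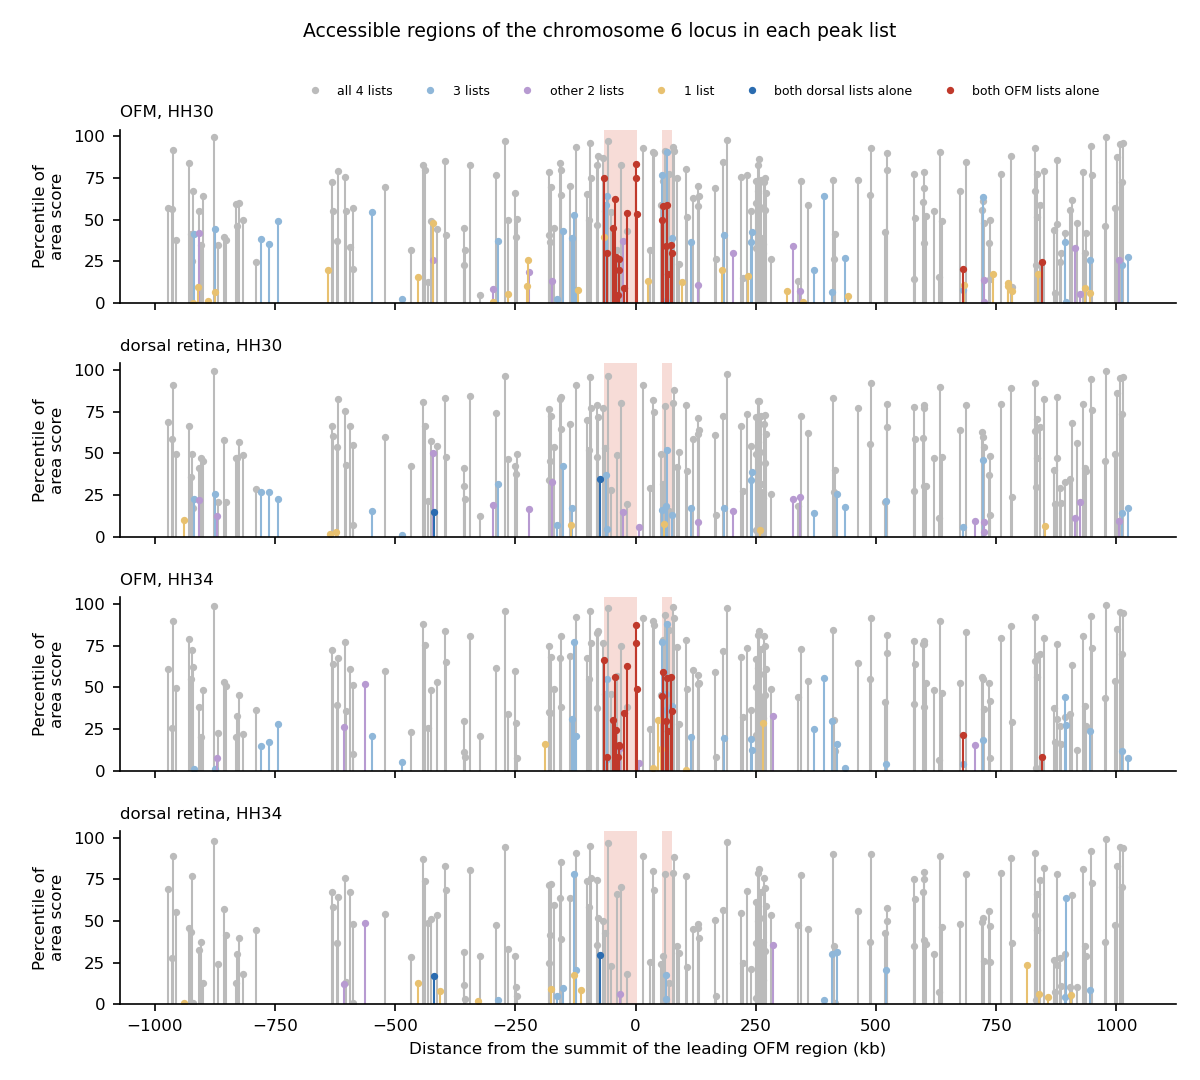
Each vertical line is a region of the locus in 1 peak list, placed by distance in kb from the summit of the leading OFM region, with its height the percentile of area score in that list. Colours give the lists that hold the region, and the shaded bands are the 2 runs of regions held by both OFM lists alone, where the OFM panels show 20 such regions and the dorsal panels none.

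Most of the locus was shared between the tissues and stages. Of its 315 regions, 180 (57.1%) had a peak in all 4 lists, against 60.6% of all regions of the study. Several of the other classes had shares unlike those of the whole study. Both OFM lists and neither dorsal list held 22 regions (6.98% of the locus), where this class made up 2.22% of all regions and 2.72% of the other 4630 regions of chromosome 6. Both dorsal lists and neither OFM list held 2 regions, or 0.635%, against a background of 1.22%, too few for these shares to be called different. The class of regions missing from dorsal retina at HH34 alone was also large, with 23 regions (7.30%, against 4.49% of all regions). Regions held by both HH34 lists alone were few, at 4 of 315 (1.27%, against 4.79%), and both HH30 lists alone held 15 (4.76%, against 5.69%). Regions missing from OFM at HH30 alone were also few, at 3 (0.952%, against 3.5%). The counts for both dorsal lists alone and both HH34 lists alone depended on the overlap required. At 50% reciprocal overlap they were 9 and 12, and shares of these classes over all regions were not computed by that rule. With lists of equal length, both HH34 lists alone held 7. Regions in 1 list were 52 (16.5%, against 14.9%), of which 28 were in OFM at HH30 (8.89%, against 6.7%). The crossed pair of dorsal retina at HH30 with OFM at HH34 held 3 (0.952%, against 0.247%), and the opposite crossed pair none (against 0.0986%). Missing from dorsal retina at HH30 alone were 8 regions (2.54%, against 1.06%), and missing from OFM at HH34 alone 3 (0.952%, against 1.17%).

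The first comparison asked which sites differ between fissure margin and dorsal retina at one stage. At HH30, 59 of 287 OFM peaks (20.6%) overlapped no dorsal peak, where the background over the whole OFM list was 12.0%. In the opposite direction, 15 of 251 dorsal peaks (5.98%) overlapped no OFM peak, against a background of 9.76%. At HH34 the OFM count was 56 of 258 (21.7%, background 11.3%) and the dorsal count 16 of 222 (7.21%, background 8.21%). OFM peaks without a counterpart were thus more frequent at the locus than in the whole list at both stages. In the rest of chromosome 6 the OFM shares were 13% at HH30 and 11.9% at HH34. The locus was picked for such sites, so this excess is given as a description. Dorsal peaks without a counterpart were less frequent than in the whole list at HH30. At HH34 their share was near the background, and it was 7.71% in the rest of chromosome 6. The dorsal direction depended on the overlap required. At 50% reciprocal overlap the dorsal counts were 47 (18.7%, background 16.1%) at HH30 and 37 (16.7%, background 13.6%) at HH34, above the background instead of below it. The OFM counts by that rule were 83 (28.9%, background 18.0%) and 73 (28.3%, background 16.6%), above it as before. Of the unmatched OFM peaks, 22 at HH30 and 24 at HH34 lay in the 2 short stretches described next, which were drawn around such peaks. Unmatched peaks were also weak as a class, with median percentiles of 17.3 and 19.9 in OFM against 55.0 and 54.0 for matched peaks at HH30 and HH34.

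The regions of both OFM lists alone were not spread over the locus. When neighbours at most 20 kb apart were joined, 20 of the 22 fell into 2 runs. The first run had 13 regions between 29907774 and 29977488, a span of 69.7 kb, and the second had 7 regions between 30029056 and 30049271, a span of 20.2 kb. The runs were 51.6 kb apart. The other 2 regions (30656280 to 30656493 and 30819404 to 30819616) lay far to the right of both runs and were weak, at percentiles of 20.2 and 24.4 in OFM at HH30. Of 20 bins of 100 kb, 16 had no region of this class, and the bins from 29900001 and from 30000001 had 13 and 7. These bins were also rich in regions of any kind, with 27 and 34 against a median of 13.5 over the 20 bins, although the bin from 30800001 likewise had 27. The first run depended on the joining distance. With neighbours joined only up to 10 kb apart it broke into pieces of 2, 6, 2 and 3 regions, and the second run, which stayed whole, was the longest of the locus with 7.

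**Figure D2:**
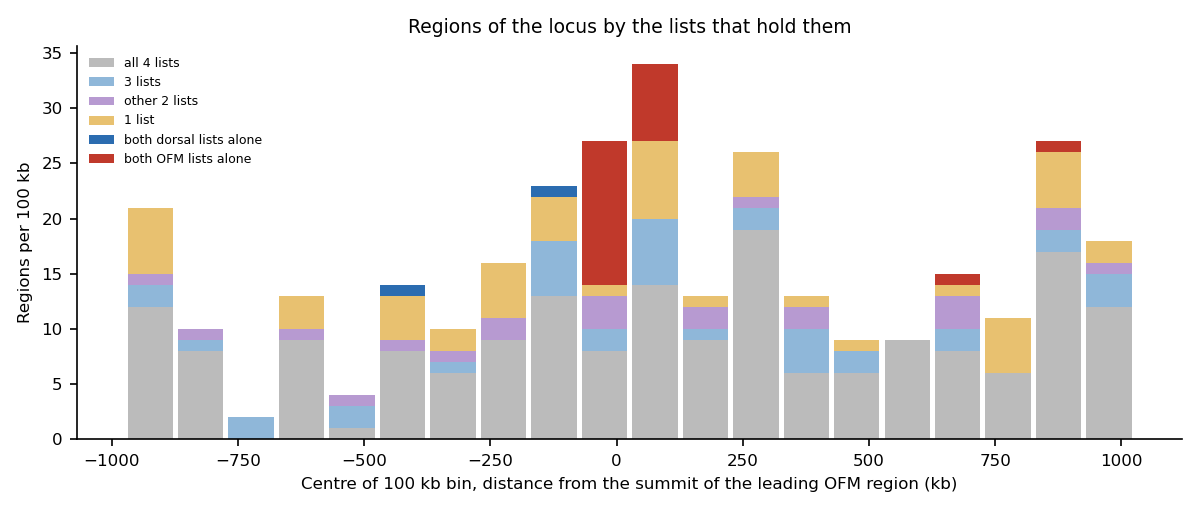
Stacked bars give the number of regions per 100 kb bin of the locus, by the lists that hold them, against the distance of the bin centre from the summit of the leading OFM region in kb. Regions of both OFM lists alone occur in 4 of the 20 bins, with 13 and 7 in the adjoining pair of bins around the leading region.

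Over all chromosomes, regions of both OFM lists alone formed 2486 runs by the same joining distance, of which 2217 were lone regions and 51 had at least 3 members. The 2 runs of the locus had the highest and the next highest number of members among them. The next in size were a run on chromosome 10 (17794268 to 17805690) and a run on Z (48182596 to 48211455), each with 6 members. Runs of both dorsal lists alone reached similar sizes, with 17 regions on chromosome 10 (16283441 to 16323681) and 13 on chromosome 15 (12558170 to 12610365), so a run of this length was not restricted to the fissure margin. None of 542 windows of 2 Mb laid over all chromosomes had more regions of both OFM lists alone than the 22 of the locus, and their maximum was 19 and their median 5. These windows start at fixed positions, whereas the locus is centred on its runs, so its higher count is favoured by its placement. The locus was also picked for its density of such regions, so its place among the runs and windows is a description. As a share of regions, 10 of the 524 windows with at least 50 regions stood above the locus, up to 10.8%.

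**Figure D3:**
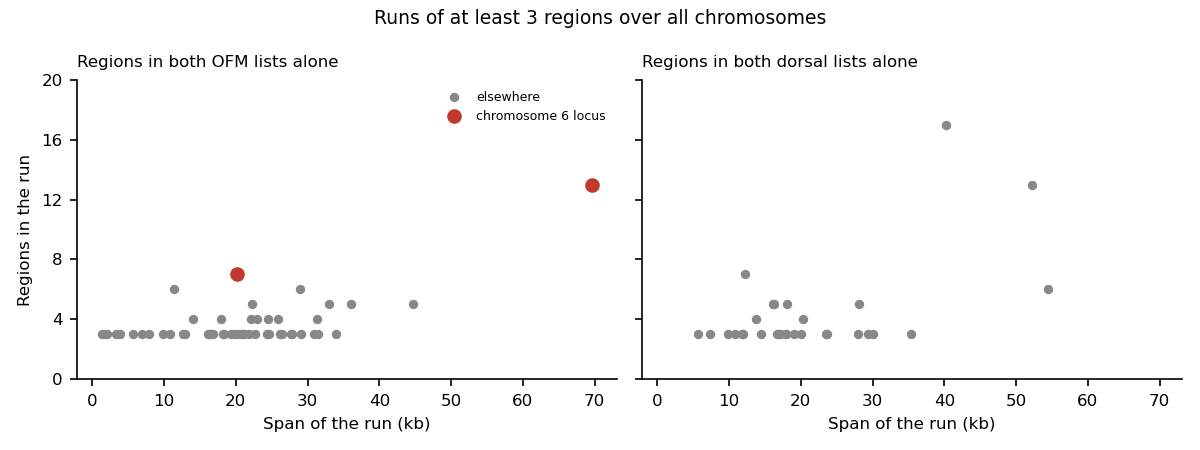
Each point is a run of at least 3 regions anywhere in the genome, with its span in kb against its number of regions, for regions in both OFM lists alone (left) and in both dorsal lists alone (right). The locus holds the OFM runs with 13 and 7 regions, and the dorsal panel has runs of 17 and 13 regions on other chromosomes.

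The covered length inside the runs is given as a description. The runs were drawn around regions with OFM peaks and no dorsal peak, so a ratio above 1 was fixed by their definition, and the lengths are sums over peaks called separately in each list. In the first run, OFM peaks covered 9.95 kb at HH30 and dorsal peaks 3.23 kb, a ratio of 3.08. At HH34 the lengths were 8.59 kb and 2.75 kb, a ratio of 3.12. In the second run OFM covered 8.43 kb at HH30 and dorsal retina 4.35 kb (ratio 1.94), and at HH34 9.18 kb and 2.98 kb (ratio 3.08). The second run was dense, since OFM peaks took up 41.7% of its length at HH30 and 45.4% at HH34. In the stretch between the runs, which holds no region of both OFM lists alone, the ratio was 1.35 at HH30 and 1.79 at HH34. In the flanks of the locus the ratios lay between 1.08 and 1.13. Of the 39 regions of any kind inside the 2 runs, 20 are those that define the runs, 9 had a peak in all 4 lists and 5 had a peak in both OFM lists and 1 dorsal list. A single region there had no OFM peak, a weak dorsal peak at HH30 (30033019 to 30033153, percentile 7.74).

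The strongest region of both OFM lists alone lay near the right end of the first run, at 29973694 to 29974598. Its percentile was 83.5 in OFM at HH30 and 87.2 at HH34, with −log10 q at the summit of 15.5 and 18.1 by the authors' call. Its summit was at the same base, 29974219, in both lists. A neighbour at 29974944 to 29975472 stood at 75.0 and 76.7 with −log10 q of 16.9 and 18.1, and again had an identical summit (29975126) at both stages. The third member of this trio, 29976901 to 29977488, stood at 53.0 and 48.8. No dorsal peak of HH34 lay within 12680 bp of any of the 3, and no dorsal peak of HH30 within 3760 bp. At HH34 they thus had the widest surroundings without a dorsal peak of any members of the first run.

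The other 10 members of the first run lay closer to dorsal peaks than the trio at HH34. At its left end, 29907774 to 29908414 stood at 75.0 in OFM at HH30 and 66.5 at HH34, and its peak was 641 bp wide at HH30 and 395 bp at HH34. The region 29931937 to 29932409 stood at 62.1 and 56.1. The region 29956648 to 29957343 stood at 53.9 and 62.9, and had the nearest dorsal peaks of the run, 911 bp away at HH30 and 924 bp at HH34. It was also the member whose summits lay farthest apart between stages, by 281 bp. The other 7 members of the first run had percentiles from 4.55 to 44.9 at HH30 and from 8.26 to 34.7 at HH34. Among them, 29950891 to 29951256 stood at 8.73 at HH30 and 34.7 at HH34, and 29913797 to 29914006 at 29.9 and 8.31, so the weak members did not all move in one direction between the stages.

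The 7 members of the second run stood at low to middle percentiles, from 17.1 to 59.0 at HH30 and from 23.9 to 59.4 at HH34. The strongest by area score were 30040258 to 30040691, at 59.0 in OFM at HH30 and 55.3 at HH34, and 30031254 to 30031778, at 58.3 and 59.4. The region 30047885 to 30048426 stood at 35.0 at HH30 and 56.4 at HH34, and its peak measured 299 bp at HH30 and 542 bp at HH34. The region 30029056 to 30029283 stood at 49.5 and 44.8. The other 3 members had percentiles from 17.1 to 34.2 at HH30 and from 23.9 to 35.6 at HH34. Dorsal peaks were closer here than around the trio of the first run. The nearest were 171 bp away at HH30 and 179 bp at HH34, both beside 30037506 to 30037897.

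Regions of both OFM lists alone made up 2.5 kb (29.7%) of the OFM peak length of the second run at HH30 and 2.75 kb (29.9%) at HH34. Regions in all 4 lists made up 41.1% and 38.5%. The widest of these was 30033326 to 30035632, at 91.3 in OFM and 78.2 in dorsal retina at HH30 and at 93.5 and 78.0 at HH34. Other regions lacked a peak in 1 dorsal list. The region 30038018 to 30039307 stood at 90.6 in OFM at HH30, 51.9 in dorsal retina at HH30 and 87.9 in OFM at HH34, and had no dorsal peak at HH34. The region 30029546 to 30030480 stood at 77.0, 16.04 and 77.2 in the same lists, again with no dorsal peak at HH34. The region 30036317 to 30036636 had percentiles of 1.36 in OFM at HH30, 45.8 in OFM at HH34 and 3.39 in dorsal retina at HH34, and no dorsal peak at HH30. In the first run, 29914926 to 29915506 was of the same kind, at 63.9 in OFM and 4.60 in dorsal retina at HH30 and 55.0 in OFM at HH34. Each of these 4 regions with 1 dorsal peak thus had its lowest percentiles, or no peak, in dorsal retina, apart from the third at HH30, where OFM itself was near the bottom of its list. Another region with both OFM lists and 1 dorsal list, 29912248 to 29912551 in the first run, stood at 58.7 in OFM and 37.1 in dorsal retina at HH30 and at 6.26 in OFM at HH34.

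**Figure D4:**
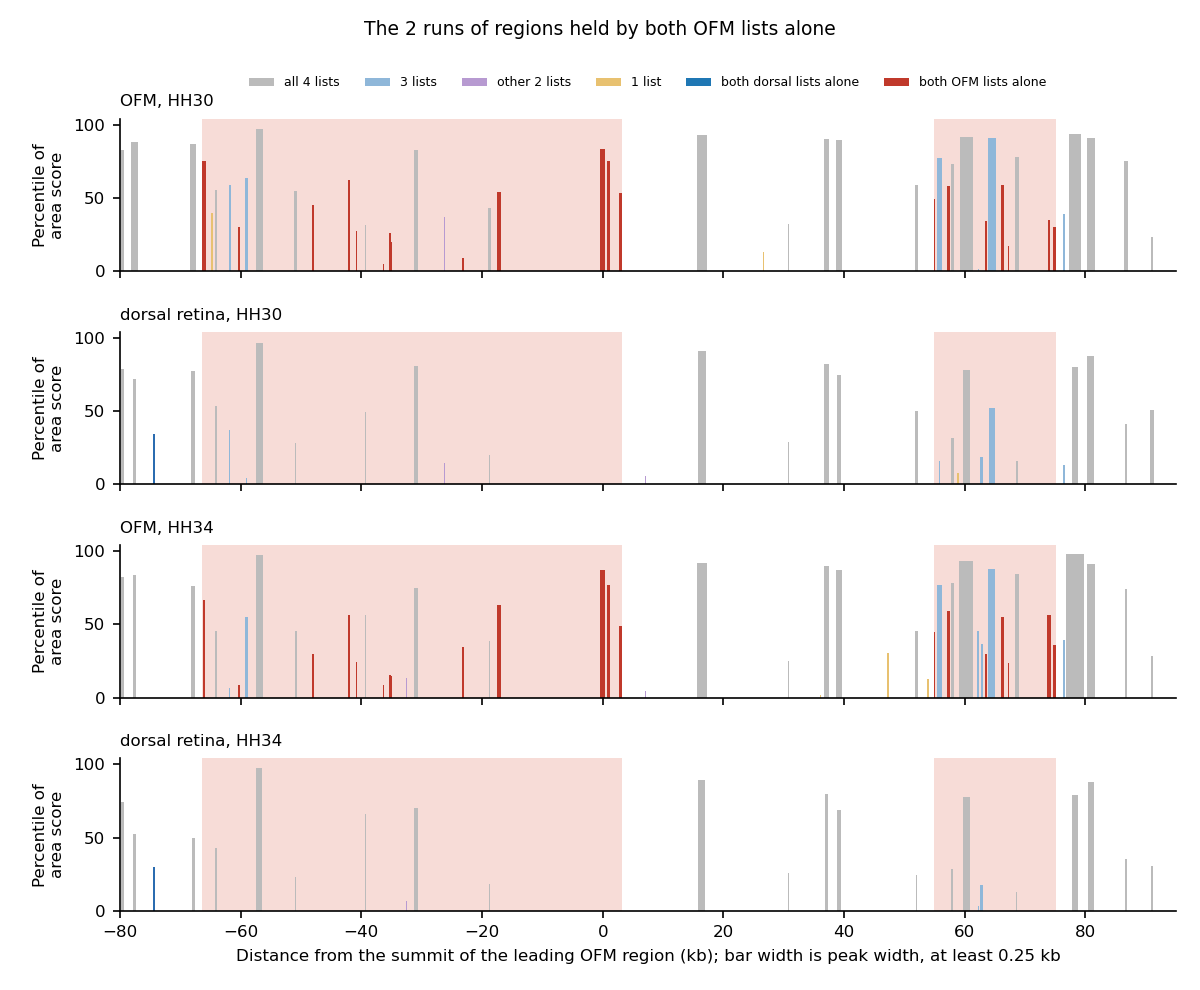
Bars show the peaks around the 2 runs (shaded) in each list, with the percentile of area score as height, the peak width in kb as bar width (at least 0.25 kb, drawn at the centre of the region), and the distance from the summit of the leading OFM region on the horizontal axis. The 3 regions around position 0 have bars in both OFM panels and none in the dorsal panels, and the tallest grey bar of the first run has nearly the same height in all 4.

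Regions with a peak in all 4 lists showed the same direction within the runs. Of 9 such regions inside the runs, 8 had the higher percentile in OFM at both stages. Over the locus this held for 105 of 180 (58.3%), and the background was 42.4% of the regions in all 4 lists over all chromosomes. The median difference, OFM minus dorsal, was 13.1 percentile points at HH30 and 15.5 at HH34 inside the runs, 1.15 and 2.64 in the rest of the locus, and 0.0288 and 0.627 over all chromosomes. The runs differed in this. The median was 2.02 and 3.8 in the 6 regions of the first run, near the rest of the locus. It was 41.7 and 49.7 in the 3 regions of the second run, and 7.92 and 9.59 in the 5 regions between the runs. The 9 regions inside the runs lie where the locus was chosen for its OFM peaks, so the difference is given as a description. The medians for the whole locus, 1.31 at HH30 and 2.72 at HH34, became 0.631 and 1.19 when the 4 lists were first shortened to equal length.

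Of the 3 shared regions with the largest lead of OFM, by the smaller of the differences at the 2 stages, the second run held the first and the last. The region 30042461 to 30043186 stood at 77.6 in OFM and 15.6 in dorsal retina at HH30, and at 84.7 and 12.9 at HH34. Its difference of 62.0 points at HH30 and 71.7 at HH34 was the highest of the locus, and at HH34 its OFM peak measured 726 bp and its dorsal peak 194 bp. The next lay outside the runs, far to the left. This region, 29054020 to 29054628, stood at 67.1 in OFM and 17.4 in dorsal retina at HH30 and at 62.3 and 1.07 at HH34, close to the bottom of the last list. Its difference at HH30 was 49.7 points, and 27.4 when peaks were ranked by area score over width. Dorsal retina had 2 peaks in this region at HH30, of which only the one with the higher area score counted. The region 30031906 to 30032403 stood at 73.1 and 31.4 at HH30 and at 78.5 and 28.8 at HH34.

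**Figure D5:**
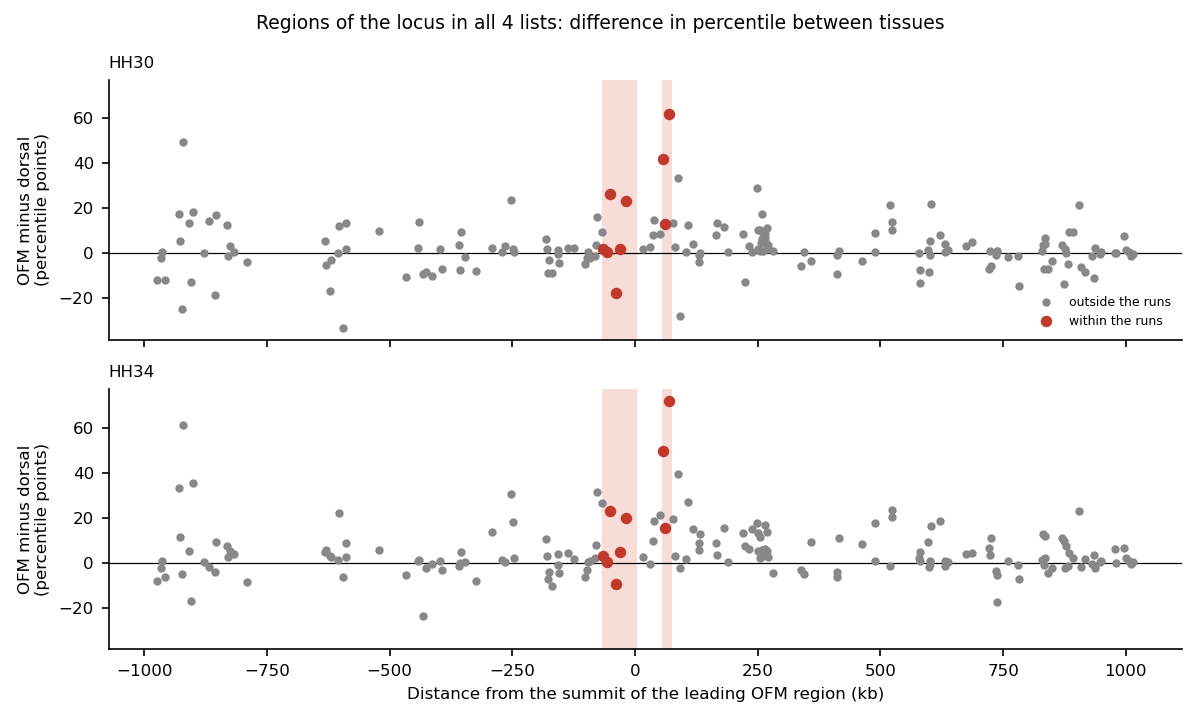
Points are the 180 regions of the locus with a peak in all 4 lists, with the percentile in OFM minus that in dorsal retina at HH30 (top) and HH34 (bottom) against the distance from the summit of the leading OFM region in kb. The 9 regions within the shaded runs include the highest point of both panels, at 62.0 and 71.7 points, and 1 of them lies below 0 at both stages.

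The opposite direction was rarer and smaller. In all, 38 of 180 shared regions had the higher percentile in dorsal retina at both stages (21.1%), against 32.1% over all chromosomes. By the smaller of the differences at the 2 stages, the leading one was 29070413 to 29070685, at 34.7 in OFM and 47.3 in dorsal retina at HH30 and at 20.4 and 37.5 at HH34. The next, 29934797 to 29935056, lay inside the first run, at 31.6 in OFM and 49.1 in dorsal retina at HH30 and at 56.5 and 66.0 at HH34. The region 29542884 to 29543257 stood at 12.4 and 21.6 at HH30 and at 25.3 and 49.0 at HH34. A lead of at least 20 points at both stages was seen in 7 regions in favour of OFM and in none in favour of dorsal retina, against 1170 and 503 of the 77405 regions in all 4 lists over all chromosomes. The 2 regions of both dorsal lists alone were weak. The region 29899776 to 29899975, which lies just to the left of the first run, stood at 34.5 at HH30 and 29.6 at HH34, and 29554802 to 29555092 at 15.1 and 17.1.

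Between the runs, the 51.6 kb stretch held no region of both OFM lists alone. Its 10 regions included 5 in all 4 lists, among them 29989791 to 29991501, at 93.0 in OFM and 90.9 in dorsal retina at HH30 and at 91.9 and 89.1 at HH34. A neighbouring pair, 30010830 to 30011776 and 30012862 to 30013927, stood at 90.3 and 89.7 in OFM and at 82.4 and 74.9 in dorsal retina at HH30. At HH34 their OFM percentiles were 89.6 and 87.4 and their dorsal percentiles 80.0 and 68.7. These 3 regions were thus strong in both tissues, with the OFM percentile ahead by 7.92 to 18.7 points in the pair. Of the other 7 regions, 4 were in 1 list only, and 2 were in all 4 lists at lower percentiles.

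The second comparison set the stages against each other, tissue by tissue. In OFM, 47 of 287 HH30 peaks (16.4%) had no counterpart at HH34, close to the background of 16.3%, and 17 of 258 HH34 peaks (6.59%) had none at HH30, where the background was 13.1%. In dorsal retina, 54 of 251 HH30 peaks (21.5%) had no counterpart at HH34 (background 16.3%), and 23 of 222 HH34 peaks (10.4%) had none at HH30 (background 12.6%). OFM peaks of HH34 without an HH30 counterpart were thus less frequent at the locus than in the whole list. In dorsal retina the share was near the background. In the rest of chromosome 6 the share was 11% in both tissues. At 50% reciprocal overlap the counts of HH34 peaks became 40 for OFM (15.5%, background 21.7%) and 43 for dorsal retina (19.4%, background 20.5%). The OFM share was again below the background, and the dorsal share was close to it.

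The regions of both OFM lists alone had a similar order of strength at the 2 stages. Across the 22 regions, the OFM percentiles at HH30 and HH34 had a Pearson r of 0.88 and a Spearman rho of 0.87. These are descriptions across sites that share the same libraries at each stage. At HH34 the percentile was higher in 10 regions and lower in 12, with differences from −21.6 to 26.0 points. Each of the 22 had exactly 1 peak in both lists, and the overlap of these peaks was 93.5% of their joint length at the median, with a range from 55.2% to 98.1%. Summits of the stages were at most 50 bp apart in 21 of the 22 regions (95.5%), against 90.2% of the 2841 regions of this class over all chromosomes. The median shift was 10 bp, against 5 bp in the class. The correlations and the overlap were not computed for the class as a whole. The median width of the 22 regions was 272 bp at HH30 and 372 bp at HH34, where the class had 250 bp and 214 bp over all chromosomes. Their median percentile was 34.6 at HH30 and 35.2 at HH34, against 23.5 and 14.2 for the class as a whole.

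Shared regions were next compared between the stages. Of the 180 regions in all 4 lists, 114 (63.3%) had the lower percentile at HH34 in both tissues, against a background of 52.3%. The percentile was higher at HH34 in both tissues in 37 (20.6%), against 31.0% over all chromosomes. The rest of chromosome 6 lay between the locus and all chromosomes, with 58.8% lower and 24.4% higher at HH34 in both tissues. The leading regions with lower values at HH34 were 29727804 to 29728316, 30891615 to 30891872 and 29143558 to 29143892. The first stood at 50.1 in OFM and 49.7 in dorsal retina at HH30, and at 7.35 and 5.04 at HH34. The second stood at 48.2 and 56.5 at HH30 and at 12.1 and 10.4 at HH34, and the last at 59.6 and 47.2 and then at 19.9 and 12.7. In each of the 3, both tissues differed between stages by more than 30 points, and the tissues differed by at most 12.4 points at either stage. The stage difference of 29727804 to 29728316 in OFM, −42.7 points, was −15.6 when peaks were ranked by area score over width. Its peaks also differed in place between the stages. They were 511 bp wide at HH30 and 161 bp at HH34 in OFM, and 513 bp and 160 bp in dorsal retina. The summits of the stages lay 311 bp apart in OFM and 314 bp in dorsal retina, and the OFM peaks overlapped over 31.5% of their joint length.

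Regions with higher values at HH34 were 30312127 to 30312512, 29051293 to 29051848 and 30255849 to 30256225. The first stood at 12.8 in OFM and 18.5 in dorsal retina at HH30 and at 44.5 and 47.8 at HH34. The second stood at 25.2 and 49.9 at HH30 and at 72.2 and 77.2 at HH34, and the last at 26.4 and 25.4 and then at 48.7 and 53.4. Among regions of both HH34 lists alone, 29411282 to 29411760 led, at 52.2 in OFM and 48.7 in dorsal retina, followed by 30259515 to 30259878 at 32.6 and 35.9 and 29367357 to 29367586 at 26.0 and 12.0. Among regions of both HH30 lists alone, the leading ones were 29551669 to 29552590, at 25.5 in OFM and 50.5 in dorsal retina, 30301001 to 30301486, at 33.9 and 22.5, and 29066164 to 29066476, at 41.8 and 22.2. Which tissue ranked higher in the first and second of these turned with the ranking: by area score over width they stood at 12.5 and 9.10, and at 9.97 and 35.3.

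Dorsal retina at HH34 had the longest empty stretch of the locus. No peak of that list lay between 29184635 and 29341615, which is 157 kb, while the longest such gap was 103.1 kb in OFM at HH30, 108.5 kb in dorsal retina at HH30 and 111.2 kb in OFM at HH34. The gaps of the other lists lay inside this same stretch. Its 103.1 kb between the OFM peaks of HH30 that end at 29230472 and start at 29333621 had no peak in any list. The stretch lacks dorsal peaks of HH34 by its definition. Of the 5 regions inside it, 3 had a peak in each of the other lists, and these 3 lay to the left of the part empty in all lists. They were 29194621 to 29194984, 29211504 to 29211966 and 29230246 to 29230472. Their percentiles were 38.3, 35.6 and 48.9 in OFM at HH30, 26.6, 26.7 and 22.5 in dorsal retina at HH30, and 14.9, 17.0 and 27.7 in OFM at HH34. All 3 thus stood lower in OFM at HH34 than at HH30 as well.

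By area score, the same 2 regions led the locus in all 4 lists. The regions 30952192 to 30955033 and 29094677 to 29097961 stood at 99.7 in OFM and 99.6 in dorsal retina at HH30. At HH34 the first of them stood at 99.5 in both tissues, and the second at 98.6 in OFM and 98.3 in dorsal retina. The peak counted in the latter was 3285 bp wide in OFM at HH30 and 2230 bp at HH34, in the former 2842 bp and 2664 bp. At HH34 the latter region held 2 peaks in each tissue, so 2230 bp is not the full accessible width there. The region 30162849 to 30164835 had percentiles from 97.4 to 98.0, and 29878090 to 29880469 from 95.3 to 96.1. Another region stood higher in both OFM lists than in both dorsal lists. Just to the right of the second run, 30050954 to 30054043 stood at 98.3 in OFM at HH34, the third highest of the locus, and at 93.6 in OFM at HH30, 80.2 in dorsal retina at HH30 and 78.8 in dorsal retina at HH34. The region 29701542 to 29704526 stood between 94.6 and 97.3 in the 4 lists. The region 29916678 to 29917847, inside the first run, stood between 96.8 and 97.5 in all 4 lists and had −log10 q from 32.4 to 36.3. This percentile differed by 0.474 points between the tissues at HH30 and by 0.340 at HH34, while regions of both OFM lists alone lay on either side of the region. By other rankings it stood above the 2 leading regions in each list. In OFM at HH30 it stood at 99.05 by −log10 q, against 97.8 and 94.27. By area score over width it stood there at 99.93, against 97.63 and 95.44.

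Summits of most shared regions lay close together. In the 180 regions, the median shift between the tissues was 2 bp at HH30 and 5 bp at HH34, and that between the stages was 4 bp in each tissue. Between the tissues, 164 summits (91.1%) at HH30 and 161 (89.4%) at HH34 were at most 50 bp apart. The background for the 77405 regions in all 4 lists over all chromosomes was 92.3% and 91.9%. Their median shift between the tissues was 2 bp at both stages. Between the stages, their median was 3 bp for the dorsal lists and 2 bp for the OFM lists. Close summits were thus not particular to the locus. Some regions with a large difference in percentile between the tissues were exceptions. In 29054020 to 29054628 the summits lay 273 bp apart at HH30 and 252 bp at HH34. Dorsal retina had 2 peaks there at HH30, and only the summit of the one with the higher area score was used. In 30050954 to 30054043 the summits lay 1123 bp and 685 bp apart. Neither region had a steady shift between the tissues. In the former, the summit 29054165 was that of OFM at HH30 and of dorsal retina at HH34. Its other summits were 29054417 (OFM, HH34) and 29054438 (dorsal retina, HH30). In the latter, the dorsal summit was 30051858 at both stages, while the OFM summit was 30052981 at HH30 and 30051173 at HH34.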

How the data were processed

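Accessible chromatin was measured by omni-ATAC-seq in 12 libraries, 3 in each of 4 groups, with 75 bp paired-end reads and at least 189000000 reads per library, per the labels. The submitters' processing notes name Trim Galore, cutadapt 1.16, FastQC, Bowtie2 2.3.4.3, SAMtools 1.6, Genrich 0.6 and deepTools 3.5.0, and the builds galGal6 and GRCg6a. Peaks were called jointly per group with Genrich, per the labels. The caller's settings, read filters and any shift of Tn5 insertion positions are not given in the sources used here, and each can change the number and width of peaks. Whether a peak came from 1 replicate or from all 3 cannot be seen in a joint list.

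The area score of each peak is the authors' deposited value and was used only to rank peaks within a list. A second deposited score equals 1000 times area over width, limited to 1000, to within 1 unit in 100% of peaks, and was not used. The −log10 q of each summit is the authors' deposited value, as is the summit position. Depth per library is unknown here, so no interval was computed from reads.

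Peaks were joined at 1 bp overlap over all chromosomes with Python 3.11.15 and pandas 2.3.3, and percentiles were taken over whole lists. Where a list had several peaks in a region, the one with the highest area score counted. Regions named are the 10 leading regions of both OFM lists alone (by the lower of their percentiles), up to 5 of both dorsal lists alone, 3 of each stage pair, 5 leading in all 4 lists, 3 with the largest difference between tissues or stages in each direction, runs of at least 3 members, and the edges. Other regions inside or beside the runs, in the long dorsal gap at HH34 and in the text on weak members were chosen after their values were seen. The members, runs and lists were chosen with earlier results of these data known. Merging and the joining of runs were checked on simulated data. The alternatives were other overlap rules, shortened lists, moved window edges, other ranks and other joining distances. A count or median was called moved past a factor of 1.5, and a share when it fell outside the Wilson interval (95%) around the reported one. Motif matches and genes planned for the locus were not analysed here, since no sequence or annotation of the build was used.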

Additional observations from a re-analysis of the deposited data

How the results depend on the processing

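With neighbours at most 10 kb apart, the first run broke up, there were 3 runs of at least 3 regions, and the longest, the second run, had 7. At most 50 kb apart, the longest had 13. At 50% reciprocal overlap, both dorsal lists alone held 9 regions, both HH34 lists alone 12, and the crossed pairs 1 (OFM of HH30, dorsal of HH34) and 6. Peaks without a counterpart were then 47 (dorsal against OFM, HH30), 37 (dorsal against OFM, HH34), 40 (OFM, HH34 against HH30) and 43 (dorsal, HH34 against HH30), and the share of all regions in both OFM lists alone was 2.44%. With summits at most 200 bp apart, the same 4 classes held 10, 10, 1 and 6 regions, and the first 3 peak counts were 36, 31 and 35. In the upper 50% of each list, both HH30 lists alone held 5 regions, the crossed pair of dorsal HH30 and OFM HH34 held 0, and all 4 lists held 77. The counts without a counterpart were 35 and 37 for OFM against dorsal at HH30 and HH34, 5 for dorsal against OFM at HH34, 20 for OFM and 24 for dorsal at HH30 against HH34, and 8 for dorsal at HH34 against HH30. The share of the locus in both OFM lists alone was then 12.4%. Taking the upper 50% of peaks against the full other lists left 7 regions for the OFM pair of lists, 77 for all 4, and 0 for the dorsal pair, the HH30 pair, the HH34 pair and the crossed pair. The counts without a counterpart were then 10 and 11 for OFM against dorsal, 0 and 0 for dorsal against OFM, 0 and 1 between the OFM stages, and 2 and 2 between the dorsal stages. With lists of equal length, both HH34 lists alone held 7 regions, the share of all regions in both OFM lists alone was 2.04%, and the median differences of shared regions were 0.631 at HH30 and 1.19 at HH34. With edges moved outward by 250 kb, both HH30 lists alone held 23 regions and the crossed pair of OFM HH30 and dorsal HH34 held 1. With edges moved inward by 250 kb, 15 dorsal peaks of HH34 had no counterpart at HH30. Of 111 percentiles of named regions, 89 moved by at most 10 points when ranked by −log10 q and 61 when ranked by area score over width, by up to 20.6 and 41.4 points. The tissue with the higher percentile changed in 29411282 to 29411760 (47.6 in OFM, 48.5 in dorsal retina at HH34) and 30259515 to 30259878 (29.6, 25.4) when ranked by −log10 q, and in 29143558 to 29143892 at HH34 (13.9, 31.4), 29551669 to 29552590 and 30301001 to 30301486 when ranked by area score over width. It also changed when ranked by −log10 q in 29094677 to 29097961, 29727804 to 29728316 and 29878090 to 29880469, whose percentiles were nearly equal in the tissues. In 30162849 to 30164835 and 30952192 to 30955033, likewise nearly equal, it changed under both rankings. There the change was at HH34 by −log10 q and at HH30 by area score over width. The cause of these shifts was not tested.

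No paired analysis was possible because peaks were called jointly over the replicates and no value per replicate was used. For the same reason leaving out each replicate was not run, and neither were the planned gene and motif alternatives. Weak peaks near the calling threshold limit every count of unmatched peaks.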
